A study of Mus musculus with 4 samples.

Results

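Glycolysis and glucose uptake were followed in RNA of CD8αβ+ IELs and CD8αβ+ SPLs through a list of 36 genes. IELs are lymphocytes that lie between the epithelial cells of the small intestine, and SPLs are lymphocytes of the spleen. A gene was included when its name was on the list and a probe with that name, other than a control, was on the array, which held for all 36 of 36 listed genes among 27376 gene names on the arrays. The 36 genes had 62 probes, and each gene was represented by its probe with the highest mean log2 signal. The IEL group (n = 2) held cells sorted from small-intestinal epithelium, and the SPL group (n = 2) held cells sorted from the spleen. Both groups came from male wild-type mice aged 8 to 12 weeks, with no treatment of either group in the labels, and each sample pooled cells of several mice. The wild-type mice were on a C57BL/6 background, and the sorted cells were single cells positive for CD45, CD3, CD8α, CD8β and TCRβ. The labels do not say that the samples of a group came from separate sorts, so that p-values measure the spread between these samples, which may be technical.

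Glycolysis breaks glucose down to pyruvate in the cytosol. Glucose enters through transporters of the Slc2a family, is trapped by hexokinases and is carried through a series of shared enzymes, after which pyruvate is either reduced to lactate and exported or taken into mitochondria, where pyruvate dehydrogenase kinases restrain its oxidation. T cells raise glucose uptake and lactate production upon activation, a program driven in part by the transcription factors *Myc* and *Hif1a*, whereas resting memory T cells rely more on mitochondrial oxidation. Enterocytes and liver cells carry their own forms of some of these proteins, including the transporter *Slc2a2* and the fructose bisphosphatase *Fbp1*, which runs a step of the pathway in reverse.

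Each sample was measured on its own Agilent array, and the levels given below are log2 processed intensities from which the 75th percentile of the array was subtracted, so that 0 stands for that percentile. The 75th percentile lay between 312 and 605 intensity units, 63.6% to 69.6% of the probes were well above background on an array, and no spot was saturated (a count of 0). According to the file headers, slide 1 carried IEL replicate 1 next to SPL replicate 2, and slide 2 carried IEL replicate 2 next to SPL replicate 1. IEL replicate 2 stood apart from IEL replicate 1. Over 27912 tested probes its Pearson correlation was 0.992 with SPL replicate 1 but 0.946 with IEL replicate 1, and between the 2 SPL replicates it was 0.986. The same held for the glycolysis genes, for which the median absolute difference was 0.135 log2 units between IEL replicate 2 and SPL replicate 1, 0.604 between the 2 IEL replicates and 0.199 between the 2 SPL replicates. Results are therefore given with and without IEL replicate 2. Its removal was chosen because it lies close to the SPL arrays, which favours larger differences between the groups. A fit without either IEL replicate rests on 1 IEL array, so that its log2 fold changes are given for single genes without p-values. Where the limma calls of the fit without IEL replicate 2 are listed by gene, they stand next to the share of all probes. The 6 T cell markers were above background on all 4 arrays, and their summed intensity, in multiples of the 75th percentile, was 427 to 486 in IELs and 474 to 490 in SPLs. The largest parts of that sum were *Cd8a* and *Cd8b1*, whose proteins were used for sorting. Both IEL arrays were above both SPL arrays for 2 of the 6 markers and below for 2, and 2 overlapped. *Cd2*, a lower one, had levels of 2.27 and 3.76 in IELs and 4.14 and 4.15 in SPLs. The summed intensity of 16 epithelial markers was 27.5 and 6.02 in IEL replicates 1 and 2, against 2.79 and 1.02 in SPL replicates 1 and 2, and 14 of the 16 were well above background on all arrays. Paneth cell markers (6 genes) summed to 396 and 10.8 in IELs and to 7.49 and 5.28 in SPLs, and goblet cell markers (5 genes) to 27.8 and 3.59 in IELs and to 1.30 and 0.239 in SPLs. By contrast, markers of neutrophils (5 genes) summed to 0.0843 and 35.5 in IELs and to 44.1 and 49.6 in SPLs, erythroid markers (5 genes) to 1.15 and 75 against 99.1 and 116, B cell markers (4 genes) to 3.54 and 19.5 against 24.9 and 19.0, and macrophage markers (4 genes) to 0.869 and 4.45 against 5.51 and 2.34. In RNA of sorted populations, fewer cells of a type and less RNA per cell cannot be told apart.

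**Figure D1:**
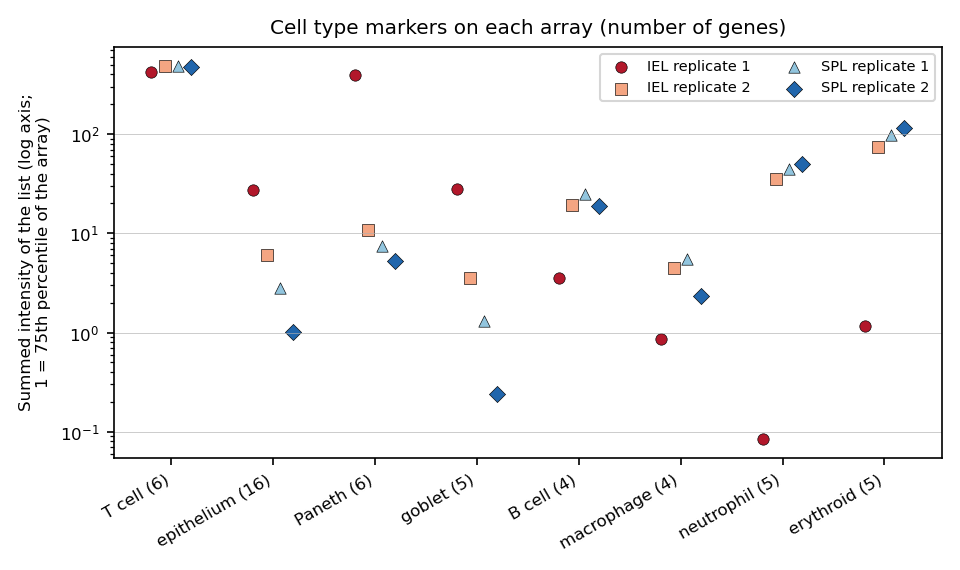
Summed intensity of marker lists on each of the 4 arrays, on a log axis in multiples of the array's 75th percentile, with the number of genes of each list in brackets. The T cell sums lie between 427 and 490 on all arrays, though *Cd2* alone is lowest in IEL replicate 1. That array is highest for epithelial, Paneth and goblet cell markers and lowest for neutrophil, erythroid, B cell and macrophage markers.

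Of the 36 genes, 34 passed the filter and were tested, and 31 of them were well above background on all 4 arrays. *Slc2a5* and *Fbp2* were not tested. None of the 34 passed an adjusted p of 0.05 in limma, with a count of 0 higher and 0 lower in IELs and adjusted p from 0.634 to 0.996, in a comparison in which 0% of all tested probes were called higher and 0% lower. At an unadjusted p under 0.05, limma gave 2 members higher in IELs (*Slc16a3* and *Fbp1*) and 0 lower, against 4.63% of all probes higher and 1.1% lower. For a single gene, 2 arrays against 2 cannot reach p = 0.05 in a two-sided exact permutation test, of which the smallest p is 0.333. The median log2 fold change (IEL minus SPL) was -0.07 over the 34 genes and -0.00070 over all tested probes, and 24 of the 34 (70.6%) lay within 0.5 log2 units, compared with 66.7% of all probes. Both IEL arrays were above both SPL arrays for 8 of 34 members (23.5%), next to 24.4% of all probes, and below both for 9 (26.5%), next to 24.6%. The shares of members were near those of all probes in both directions. Differences of at least 2-fold in the means were seen for *Hk2* and *Fbp1* in the direction of IELs and for *Pdk1* and *Myc* in the direction of SPLs, which is 2 of 34 each way, against 6.43% and 6.42% of all probes.

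**Figure D2:**
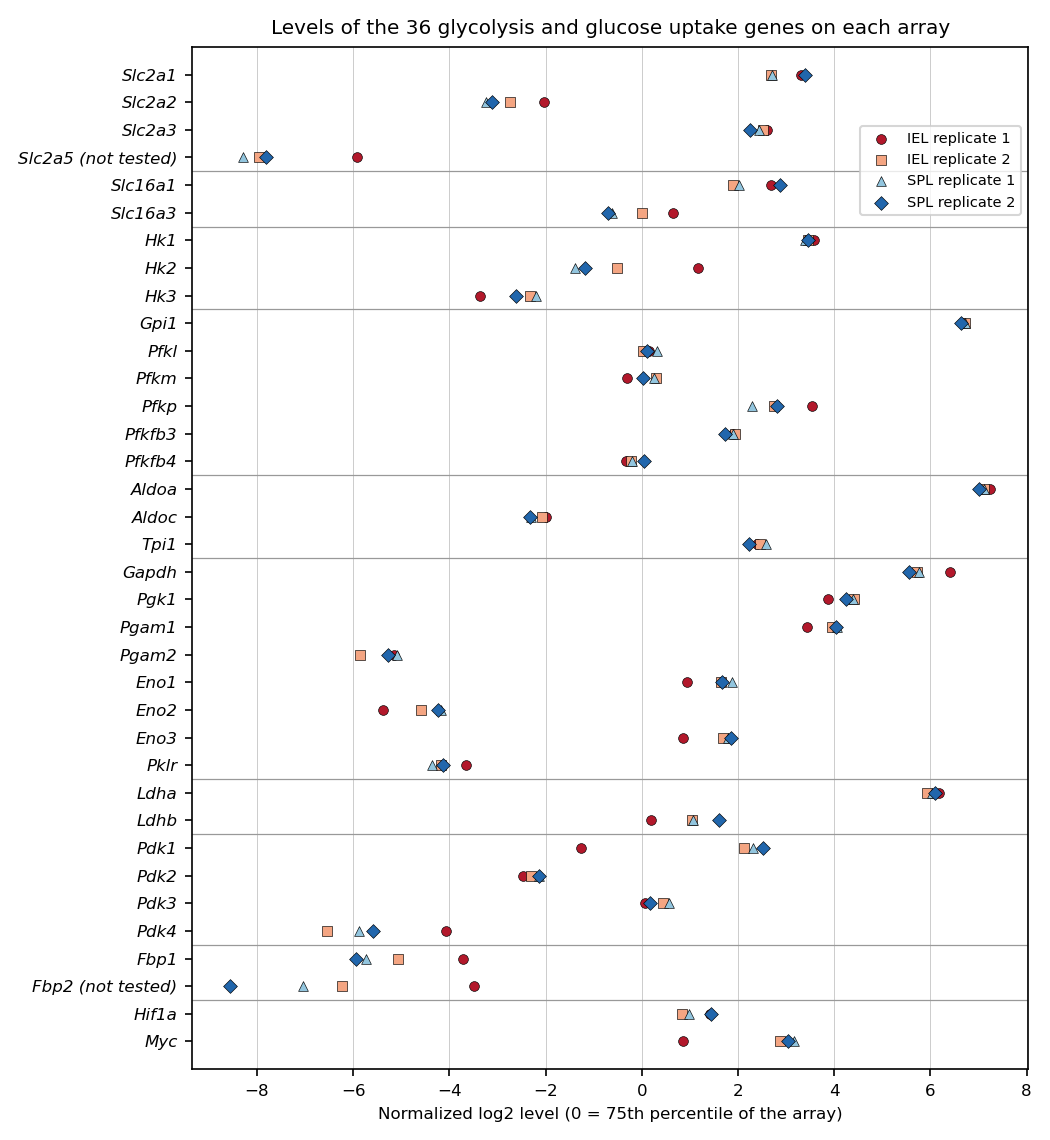
Normalized log2 level of the 36 genes on each of the 4 arrays, with 0 at the 75th percentile of the array, grouped by their step in the pathway with grey lines between groups. *Gpi1* lies between 6.65 and 6.72 on all arrays, whereas IEL replicate 1 stands away from the other arrays for *Hk2*, *Pdk1*, *Myc*, *Pdk4* and *Fbp1*.

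Glucose transporters came first. *Slc2a1* is the basal glucose transporter that activated T cells raise. Its level was 3.30 and 2.69 in IEL replicates 1 and 2 and 2.70 and 3.40 in SPL replicates 1 and 2. The groups overlapped, with the arrays of slide 1 above those of slide 2, and the log2 fold change of -0.05 (SE 0.38) was -0.40 when SPL replicate 1 was left out and 0.29 when SPL replicate 2 was. *Slc2a3*, the high-affinity transporter of lymphocytes and neurons, had 2.61 and 2.53 in IELs and 2.43 and 2.24 in SPLs. The IEL arrays were above both SPL arrays, by 0.23 log2 units (SE 0.23) in the mean. *Slc2a2*, the low-affinity transporter of liver, pancreatic islets and enterocytes, had levels of -2.02 and -2.74 in IELs and -3.23 and -3.12 in SPLs. The groups did not overlap, with a log2 fold change of 0.79 (SE 0.33, adjusted p = 0.634 in limma). Without IEL replicate 2 it was 1.16, and without IEL replicate 1 it was 0.43. A second *Slc2a2* probe was too dim to be tested in either group. Its processed intensities were 1.69 and 1.68 units in IELs and 1.62 and 1.72 units in SPLs. The difference in *Slc2a2* therefore rests on the chosen probe alone. The probe of *Slc2a5*, a fructose transporter, stayed too dim to count as well above background on each of the 4 arrays, with processed intensities from 1.54 to 5.14 units.

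Probes of *Slc2a2* and *Eno1* and second probes of *Pfkp* and *Ldha* span more bases on mm9, in the arrays' annotation, than their own length. That they cross an exon junction was inferred from this span, and they are called junction probes below. They hold a reading frame without stop codon. Shown here are the letters that were hybridized, in lower case throughout because no part of them is singled out. Each is 60 bases long, and its ends lie between 226 and 2155 bases apart in the genome.
*Slc2a2*, chr3:28625253-28625961: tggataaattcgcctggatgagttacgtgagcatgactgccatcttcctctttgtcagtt
*Eno1*, chr4:149618134-149618359: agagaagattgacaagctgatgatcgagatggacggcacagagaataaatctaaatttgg
*Pfkp*, chr13:6581718-6583872: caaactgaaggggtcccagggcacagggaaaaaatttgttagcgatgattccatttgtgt
*Ldha*, chr7:54109426-54110355: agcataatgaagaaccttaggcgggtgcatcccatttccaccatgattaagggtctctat

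Lactate and pyruvate leave or enter the cell through monocarboxylate transporters. *Slc16a3*, which exports lactate from highly glycolytic cells, had levels of 0.64 and -0.0012 in IELs and -0.62 and -0.70 in SPLs (chr11:120820023-120820082 of mm9). Both IEL replicates were above both SPL replicates. Its log2 fold change was 0.98 (SE 0.31), or 1.97-fold higher, with an unadjusted p of 0.031 and an adjusted p of 0.634 in limma. The difference was 1.34 on slide 1 and 0.62 on slide 2. It was 1.30 without IEL replicate 2, against 0.66 without IEL replicate 1. *Slc16a1*, which carries lactate and pyruvate in both directions, had 2.69 and 1.90 in IELs and 2.03 and 2.88 in SPLs, and here the arrays of slide 1 were higher than those of slide 2. Its log2 fold change of -0.16 (SE 0.45) turned to 0.24 without IEL replicate 2 and to 0.26 without SPL replicate 2.

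Of the 3 hexokinases, which phosphorylate glucose on entry, *Hk2* differed most between the groups. *Hk2*, the inducible form, had levels of 1.18 and -0.51 in IEL replicates 1 and 2 and -1.39 and -1.19 in SPL replicates 1 and 2 (chr6:82675056-82675115 of mm9). Both IEL arrays were above both SPL arrays, but the 2 IEL arrays were themselves 1.69 log2 units apart. The log2 fold change was 1.62 (SE 0.62), or 3.07-fold higher, with an adjusted p of 0.634 in limma. Within slides the difference was 2.37 on slide 1 and 0.87 on slide 2. It was 2.47 without IEL replicate 2, against 0.77 without IEL replicate 1. *Hk1*, the constitutive form, had 3.57, 3.46, 3.39 and 3.47 on the same 4 arrays and a log2 fold change of 0.09 (SE 0.23). Of the other 5 probes of *Hk1*, 4 were tested and had positive log2 fold changes from 0.27 to 0.45. *Hk3*, a form of myeloid cells, had -3.37 and -2.32 in IELs and -2.21 and -2.61 in SPLs. The lowest *Hk3* level was in IEL replicate 1, where neutrophil markers were also lowest, and the part of neutrophil RNA in it was not tested. Its log2 fold change of -0.44 (SE 0.44) turned to 0.09 without IEL replicate 1.

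*Gpi1* and the phosphofructokinase group carry the hexose phosphates to fructose bisphosphate. *Gpi1*, the isomerase, had levels of 6.70 and 6.71 in IELs and 6.72 and 6.65 in SPLs, with a log2 fold change of 0.02 (SE 0.22) whose sign turned to -0.016 without SPL replicate 2. The 3 subunit genes of phosphofructokinase, the committed step of glycolysis, behaved differently from each other. The liver type, *Pfkl*, lay between 0.04 and 0.31 on all arrays, and the muscle type, *Pfkm*, between -0.31 and 0.29, with log2 fold changes of -0.12 (SE 0.24) and -0.14 (SE 0.31). For *Pfkm* the value turned to 0.16 without IEL replicate 1. The platelet type, *Pfkp*, had 3.54 and 2.76 in IELs and 2.29 and 2.80 in SPLs. IEL replicate 1 was highest and the groups overlapped, with a log2 fold change of 0.60 (SE 0.39). The junction probe of *Pfkp* printed above had 3.57 and 2.31 in IELs and 1.93 and 1.89 in SPLs, with both IEL arrays higher and a log2 fold change of 1.03. The remaining *Pfkp* probe had -0.18. *Pfkfb3*, which makes the allosteric activator of phosphofructokinase, had 1.89 and 1.95 in IELs and 1.89 and 1.73 in SPLs (log2 fold change 0.11, SE 0.23), and *Pfkfb4*, a relative, had -0.32 and -0.21 against -0.20 and 0.04 (-0.19, SE 0.24).

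Aldolases and triose phosphate isomerase split the sugar into trioses. *Aldoa*, the main aldolase of most tissues, had levels of 7.25 and 7.12 in IELs and 7.12 and 7.01 in SPLs, a log2 fold change of 0.12 (SE 0.23). *Aldoc*, a form known from brain, had -2.0 and -2.08 against -2.29 and -2.33, a log2 fold change of 0.28 (SE 0.22), and its second probe gave 0.99. Both IEL arrays were above both SPL arrays for the 2 aldolases, by less than 0.5 log2 units in the mean of the chosen probes. *Tpi1* had 2.41 and 2.45 against 2.59 and 2.22, and its log2 fold change of 0.02 (SE 0.26) turned to -0.0021 without IEL replicate 2 and to -0.16 without SPL replicate 2.

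The 8 genes of the energy-yielding steps after the triose had log2 fold changes from -0.78 to 0.40, with a median of -0.34. For 4 of them both IEL arrays were below both SPL arrays, for 0 they were above, and for the other 4 the groups overlapped, where 24.6% of all probes were below and 24.4% above. One of the 4, *Eno2*, was dim in IELs. *Gapdh*, which oxidizes the triose phosphate, had levels of 6.42 and 5.71 in IELs and 5.77 and 5.56 in SPLs, with IEL replicate 1 above the other 3 arrays. Its log2 fold change was 0.40 (SE 0.33), and its second probe, with 5.86 and 5.21 against 5.30 and 5.07, gave 0.35. *Gapdh* is often used to scale other measurements, and the difference was 0.86 on slide 1 and -0.06 on slide 2. *Pgk1*, the first step that yields ATP, had 3.87 and 4.42 in IELs and 4.40 and 4.25 in SPLs, and its log2 fold change of -0.18 (SE 0.29) turned to 0.09 without IEL replicate 1. Both *Pgk1* probes are annotated on chromosome 3 of mm9 and share 38 bases of that position, whereas RefSeq places *Pgk1* on chromosome X, so that the probes may read a copy of the gene.

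*Pgam1*, the widely expressed phosphoglycerate mutase, had levels of 3.44 and 3.95 in IELs and 4.06 and 4.04 in SPLs, with both IEL arrays lower and a log2 fold change of -0.36 (SE 0.28). The muscle form, *Pgam2*, was well above background on 1 of 2 IEL arrays and on both SPL arrays, at -5.15, -5.86, -5.08 and -5.27, and its log2 fold change of -0.33 (SE 0.34) turned to 0.03 without IEL replicate 2. Enolases make phosphoenolpyruvate, and the IEL arrays of each of the 3 were below both SPL arrays, as were those of 24.6% of all probes. *Eno1*, the form of most cells, had 0.93 and 1.64 in IELs and 1.89 and 1.68 in SPLs (log2 fold change -0.49, SE 0.34). Its probe, printed above, has an accession that RefSeq lists for both *Eno1* and the copy *Eno1b*. *Eno3*, the muscle form, had 0.87 and 1.69 against 1.79 and 1.86 (-0.55, SE 0.36). *Eno2*, the neuronal form, had -5.39 and -4.58 against -4.18 and -4.23 (-0.78, SE 0.35). It was not well above background in IEL replicate 1, at 7.46 intensity units, and with normexp background its value turned to 0.17. For each enolase the gap between the 2 IEL arrays, from 0.71 to 0.82 log2 units, was larger than the difference of IEL replicate 2 from SPL replicate 1, from -0.40 to -0.10. *Pklr*, the pyruvate kinase of liver and red cells, had -3.66 and -4.17 in IELs and -4.36 and -4.14 in SPLs, a log2 fold change of 0.34 (SE 0.29).

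Lactate dehydrogenase converts pyruvate to lactate or back. *Ldha*, whose subunit favours lactate production, had levels of 6.18 and 5.93 in IELs and 6.03 and 6.10 in SPLs. The groups overlapped, and the log2 fold change of -0.0043 (SE 0.24) turned to 0.12 without IEL replicate 2 and to 0.03 without SPL replicate 2. The junction probe of *Ldha* had 4.71 and 4.81 in IELs and 4.76 and 4.63 in SPLs, a log2 fold change of 0.07. *Ldhb*, whose subunit favours pyruvate production, had 0.19 and 1.04 in IELs and 1.06 and 1.60 in SPLs. The IEL arrays were the lower ones, and IEL replicate 2 was 0.02 log2 units from SPL replicate 1. The log2 fold change of *Ldhb* was -0.71 (SE 0.41), with -1.41 on slide 1 and -0.02 on slide 2.

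The 4 pyruvate dehydrogenase kinases hold pyruvate back from mitochondrial oxidation. *Pdk1*, a target of hypoxia signalling, had levels of -1.27 and 2.12 in IELs and 2.30 and 2.52 in SPLs (chr2:71741820-71741879 of mm9), from processed intensities of 129, 1890, 2366 and 3474 units. IEL replicate 1 was more than 3 log2 units below the other 3 arrays. The log2 fold change was -1.99 (SE 1.17, adjusted p = 0.634 in limma), or 3.97-fold lower in IELs. On slide 1 alone it was -3.79, against -0.18 on the other slide. A second *Pdk1* probe had -0.33 and 1.49 in IELs and 1.96 and 2.26 in SPLs, with the same order of groups. Without IEL replicate 2 the value of *Pdk1* was -3.68, and without IEL replicate 1 it was -0.29. *Pdk4*, a form induced by fasting and fatty acids, had -4.06 and -6.54 in IELs and -5.88 and -5.58 in SPLs and was well above background on 1 of 2 IEL arrays. The 2 IEL arrays lay on either side of the SPL arrays. Its log2 fold change of 0.43 (SE 0.88) was 1.67 without IEL replicate 2 and -0.81 without IEL replicate 1. *Pdk2* had -2.46 and -2.30 against -2.14 and -2.14, with both IEL arrays lower by 0.24 (SE 0.23) in the mean. *Pdk3* lay between 0.07 and 0.57, and its log2 fold change of -0.12 (SE 0.29) turned to 0.07 without IEL replicate 1 and to 0.08 without SPL replicate 1.

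Fructose bisphosphatases run the phosphofructokinase step in reverse. *Fbp1*, the form of liver, kidney and intestine, had levels of -3.72 and -5.07 in IELs and -5.73 and -5.95 in SPLs (chr13:62966175-62966234 of mm9), from processed intensities of 23.7, 12.9, 9.05 and 9.81 units. Both IEL arrays were above both SPL arrays, and all 4 were well above background. The log2 fold change was 1.44 (SE 0.52), or 2.71-fold higher, with an unadjusted p of 0.045 and an adjusted p of 0.634 in limma. The difference was 2.23 on slide 1 and 0.65 on slide 2, and without IEL replicate 2 it was 2.12. Without IEL replicate 1 it was 0.76, and with normexp background it was 0.65. *Fbp2*, the muscle form, had processed intensities of 27.9 and 5.81 units in IELs and 3.61 and 1.61 units in SPLs and was well above background only in IEL replicate 1. No fold is given for it. Of the tested members, 8 had both IEL arrays above both SPL arrays, as did 24.4% of all probes. Among them *Pfkfb3* was highest in IEL replicate 2. The others, *Slc2a2*, *Slc2a3*, *Slc16a3*, *Hk2*, *Aldoa*, *Aldoc* and *Fbp1*, were highest in IEL replicate 1, as were the summed epithelial markers. The order of the SPL arrays was not the same in all of them. The share of all probes that were highest in IEL replicate 1 was not counted. The epithelial markers were higher in IEL replicate 1 than in IEL replicate 2 for 12 of 16 genes. For 14 of 16 they were above both SPL arrays in both IEL arrays. The part of epithelial RNA in these levels was not tested.

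Among the regulators, *Hif1a*, the oxygen-regulated subunit of the hypoxia-inducible factor, had levels of 1.41 and 0.84 in IELs and 0.99 and 1.45 in SPLs. The arrays of slide 1 were above those of slide 2, and the log2 fold change of -0.10 (SE 0.33) turned to 0.19 without IEL replicate 2 and to 0.13 without SPL replicate 2. *Myc*, which drives growth and glycolytic genes in activated T cells, had 0.85 and 2.88 in IELs and 3.17 and 3.03 in SPLs (chr15:61821516-61821576 of mm9). IEL replicate 1 was about as far below IEL replicate 2, by 2.03, as it was below SPL replicate 2 (difference -2.18). The log2 fold change was -1.24 (SE 0.72, adjusted p = 0.634 in limma), or 2.36-fold lower, with -2.18 on slide 1 and -0.29 on slide 2. Its other probes had log2 fold changes of -1.36 and -1.05 and were likewise lowest in IEL replicate 1. Without IEL replicate 2 the value was -2.25, and without IEL replicate 1 it was -0.22. In all, 9 members, *Myc* and *Pdk1* among them, had both IEL arrays below both SPL arrays, as did 24.6% of all probes. Each of these members was lowest in IEL replicate 1, as were the summed neutrophil, erythroid, B cell and macrophage markers. How many of all probes were lowest in that array was not counted. The part of RNA of these other cell types in the members' levels was not tested.

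Set side by side, the slides gave different sizes for the same comparison. On slide 1, which holds IEL replicate 1, 5 members were at least 2-fold higher in IELs (*Slc2a2*, *Slc16a3*, *Hk2*, *Pdk4* and *Fbp1*), with 11.8% of all probes, and 4 were at least 2-fold lower (*Eno2*, *Ldhb*, *Pdk1* and *Myc*), with 13.7% of all probes. On slide 2, which holds IEL replicate 2, 0 members were at least 2-fold higher and 0 lower, with 2.46% and 0.731% of all probes. The differences ran from -3.79 to 2.37 log2 units on slide 1 and from -0.78 to 0.87 on slide 2, and 25 of the 34 members had the same sign on both. The largest differences on slide 2 that had the sign of slide 1 were those of *Hk2*, *Fbp1*, *Slc16a3*, *Slc2a2* and *Pfkp*, from 0.47 to 0.87, all higher in IELs. Opposite signs on the slides were seen for *Pdk4*, *Pgam2*, *Gapdh*, *Pgk1*, *Pfkl*, *Pfkm*, *Gpi1*, *Tpi1* and *Ldha*. With IEL replicate 2 left out, limma called 5 members higher (*Slc2a2*, *Slc16a3*, *Hk2*, *Pdk4* and *Fbp1*) next to 8.54% of all probes, and 3 members lower (*Eno2*, *Pdk1* and *Myc*) next to 11%. The call of *Eno2* rests on IEL replicate 1, in which its probe was not well above background, and on a filter it passed through the SPL arrays. The spread between IEL arrays does not enter the calls of this fit, so that they cannot show a group difference for a single gene. In that fit the single IEL sample is assumed to vary like the SPL samples, and the share of members, 14.7% and 8.82%, is to be read against those of all probes.

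**Figure D3:**
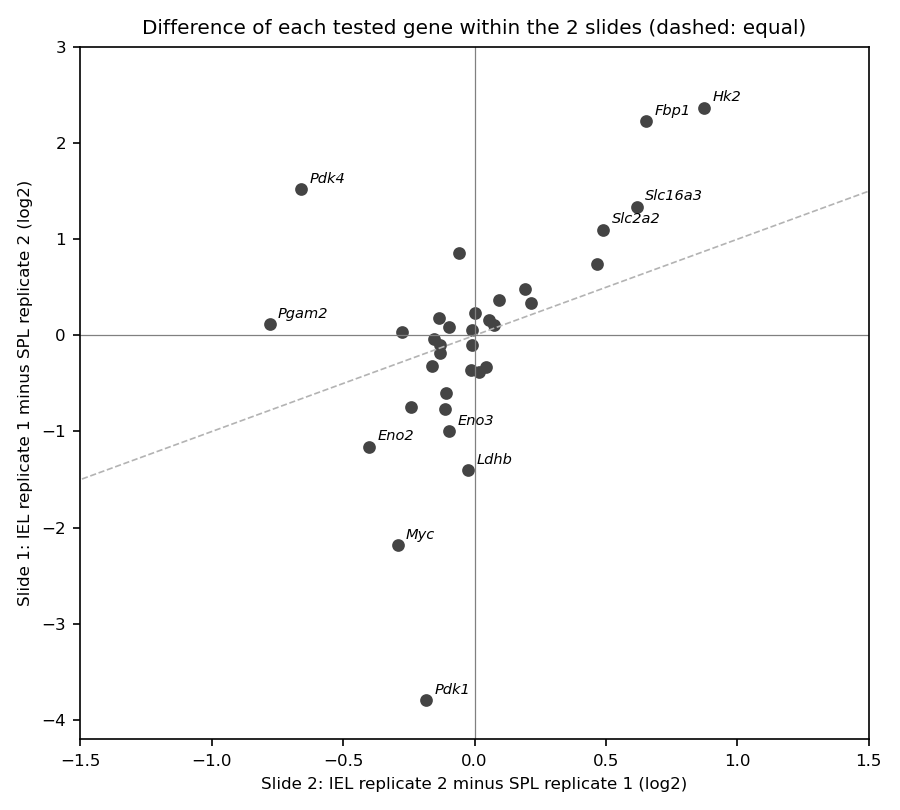
Difference of each of the 34 tested genes between the IEL and the SPL array of slide 2 (horizontal axis) and of slide 1 (vertical axis), in log2 units, each point being 1 gene and the dashed line marking equal differences (the axes have different scales). *Hk2*, *Fbp1*, *Slc16a3* and *Slc2a2* are above 0 on both slides, whereas *Pdk1*, at -3.79 on slide 1, is at -0.18 on slide 2.

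Levels were also compared between the slides. Both arrays of slide 1 were above both arrays of slide 2 for 8 of 34 members, against 20.7% of all probes, and below for 6, against 16.3%. These shares of members are near those of all probes. By cell type the counts were 8 members above and 9 below, against 24.4% and 24.6% of all probes. The largest such differences (slide 1 minus slide 2, means of 2 arrays) were 1.39 for *Pdk4*, 0.82 for *Slc16a1*, 0.65 for *Slc2a1*, 0.65 for *Pfkp*, 0.51 for *Hif1a* and -0.72 for *Hk3*. Each slide held 1 array of each group, so that the slide does not coincide with the group.

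Other probes of the same genes bear on how far a single probe can be read. Of 26 other probes of 17 members, 24 probes of 16 genes were tested, and 19 of them had the sign of the chosen probe. The median gap between a probe and the chosen one was 0.258 log2 units and the largest 1.37. That largest gap was in *Slc2a3*, where a probe annotated on chromosome 17 of mm9, while the gene lies on chromosome 6, gave -1.14, and another probe gave 0.70. Probes with opposite signs belonged to *Slc2a3*, *Slc16a1*, *Pfkp*, *Tpi1* and *Ldha*. The accession of the chosen probe matched its own symbol in RefSeq for 34 of 36 genes and matched none for 2 (*Pfkp* and *Pdk2*), and those of *Gapdh*, *Eno1* and *Ldha* matched a further copy of the gene as well.

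**Figure D4:**
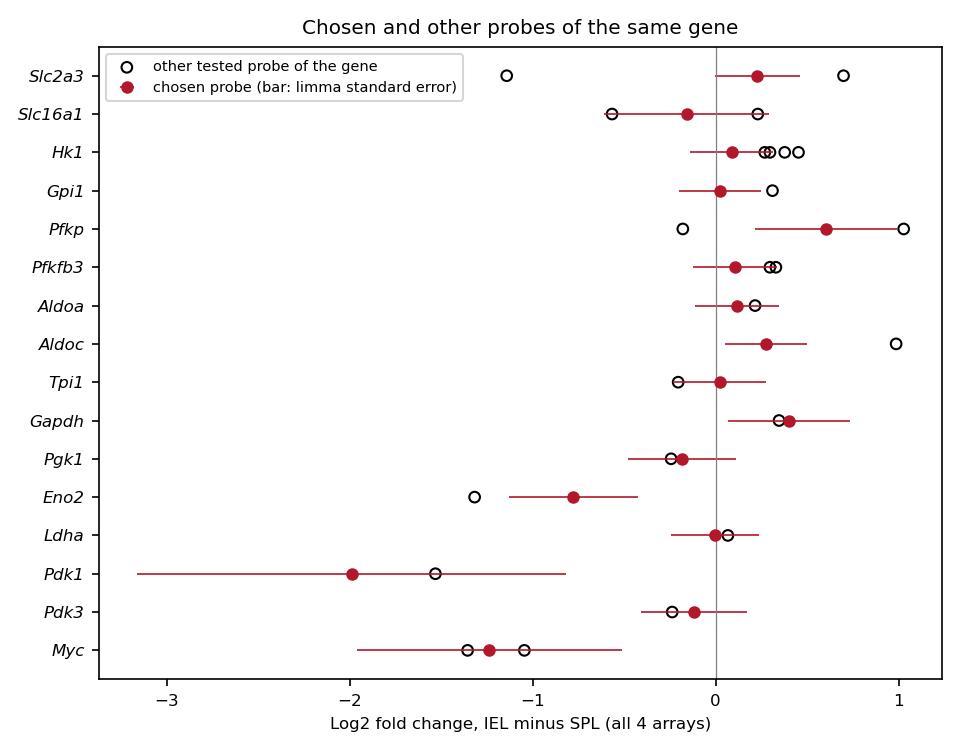
Log2 fold change (IEL minus SPL, 4 arrays) of the chosen probe (filled point, with the limma standard error as a bar) and of each other tested probe (open circle) for the 16 genes with more than 1 tested probe. The probes of *Pdk1* and *Myc* all lie below -1, whereas those of *Slc2a3* lie from -1.14 to 0.70.

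Hypoxia-inducible factors bind the letters ACGTG or GCGTG, and *Myc* binds CACGTG, which holds ACGTG on both strands. The 250 bases before each RefSeq start on GRCm38.p6 were searched for ACGTG and GCGTG on both strands (CACGT and CACGC on the printed strand). RefSeq promoters were found for 34 of the 36 genes, with the exception of *Myc* and *Slc2a3*, and 34 of their 48 promoters (70.8%) held the letters, compared with 12679 of 32851 promoters (38.6%) in all, so that the letters stood before 26 of 34 genes (76.5%) and before 41.5% of all 27025 genes. The median GC content was 58.6% in the promoters of the members and 52.4% in all, and its part in these shares was not tested. The promoters of *Hk2*, *Slc16a3* and *Fbp1*, whose IEL arrays were above their SPL arrays, and of *Ldha*, whose groups overlapped, are shown 5′ to 3′, up to the base before the start, with the searched letters in capitals. *Hk2* has 2 stretches of them, *Slc16a3* has 2, *Ldha* has 3 before the first of its starts, of which a pair are CACGTG, and *Fbp1* has 0.
*Hk2*, chr6:82774455-82774704, minus strand: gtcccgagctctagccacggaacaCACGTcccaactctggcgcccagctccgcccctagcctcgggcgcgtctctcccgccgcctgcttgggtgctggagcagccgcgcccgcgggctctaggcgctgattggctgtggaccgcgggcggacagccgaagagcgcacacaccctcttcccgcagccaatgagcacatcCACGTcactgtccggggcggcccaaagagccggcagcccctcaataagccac
*Slc16a3*, chr11:120948817-120949066, plus strand: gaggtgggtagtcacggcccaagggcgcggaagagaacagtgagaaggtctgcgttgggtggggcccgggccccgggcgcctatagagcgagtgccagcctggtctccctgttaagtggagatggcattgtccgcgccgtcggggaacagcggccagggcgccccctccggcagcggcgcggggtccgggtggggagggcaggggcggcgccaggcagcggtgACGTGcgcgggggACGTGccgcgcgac
*Ldha*, chr7:46845554-46845803, plus strand: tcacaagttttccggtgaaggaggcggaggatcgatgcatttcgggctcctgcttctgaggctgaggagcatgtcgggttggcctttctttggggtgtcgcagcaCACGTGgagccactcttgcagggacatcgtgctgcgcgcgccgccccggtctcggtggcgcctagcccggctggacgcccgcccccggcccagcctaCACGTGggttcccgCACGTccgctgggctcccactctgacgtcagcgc
*Fbp1*, chr13:62888283-62888532, minus strand: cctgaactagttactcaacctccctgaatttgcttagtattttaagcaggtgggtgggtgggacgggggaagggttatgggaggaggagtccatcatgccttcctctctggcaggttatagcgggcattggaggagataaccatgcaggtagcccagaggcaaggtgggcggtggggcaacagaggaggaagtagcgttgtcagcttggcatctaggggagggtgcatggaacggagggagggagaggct
In *Hk2* the stretches begin 226 and 52 bases before the start, and in *Slc16a3* they begin 27 and 14 bases before it. Of these genes, *Hk2* and *Slc16a3*, with the letters, and *Fbp1*, without them, were each higher on both IEL arrays than on both SPL arrays, and *Ldha*, with the letters, had a log2 fold change of -0.0043. The printed genes are a choice. Among members with both IEL arrays below both SPL arrays, *Eno1*, *Eno3*, *Ldhb*, *Pdk1*, *Pdk2*, *Pfkfb4* and *Pgam1* had the letters. *Eno2* did not, and no promoter was found for *Myc*. A match is a description of these letters, not a binding site.

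Other genes of glucose use were read from lists of pathway genes. Of 26 further genes of glycolysis and sugar uptake, 24 were on the arrays and 21 were tested, and limma called 0 of them higher and 0 lower, the same counts as in each list named next. Their median log2 fold change was 0.07. *Pgk2*, a testis form, had a log2 fold change of 2.29 (SE 0.79), and *Galm*, which handles galactose, had -1.12 (SE 0.60). *Pkm*, the pyruvate kinase of T cells, had 4.29 and 3.79 in IELs and 3.93 and 3.68 in SPLs, a log2 fold change of 0.23 (SE 0.29). The 8 genes of the pentose phosphate pathway had values from -0.27 to 0.23, the largest being those of *Taldo1* (-0.27), *Pgd* (0.23) and *G6pdx* (-0.19). The 9 measured genes of pyruvate entry into mitochondria ranged from -0.58 to 0.09, led by *Pdp1* (-0.58), *Mpc1* (-0.36) and *Dlat* (-0.19), and the 4 measured genes of gluconeogenesis from -0.34 to 0.56, led by *G6pc* (0.56), *Pck2* (-0.34) and *Pcx* (0.05). Among 14 hypoxia targets, the median was 0.02, and the largest values were those of *Mxi1* (1.03), *Ndrg1* (0.66) and *Ddit4* (0.59). In each of the last 3, IEL replicate 1 was at least 0.76 log2 units above IEL replicate 2. The 11 measured reference genes had a median of 0.18 and ran from -0.96 (*Gusb*) to 0.91 (*Actb*).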

How the data were processed

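RNA of 4 sorted samples was measured on 1-color Agilent arrays. The authors deposited scanner files whose header names Feature Extraction 10.7.3.1 (10.7.1.1 in the labels) and in which the intensity of each spot is background-subtracted but not normalized between arrays. A table of log2 values that the authors deposited holds these arrays too. Its ranks matched the scanner values (Spearman correlation at least 0.999988), its column medians are 5.57 to 5.59, and how it was normalized is not given in the sources used here. The study's methods name another array type. Here, spots with an outlier mark (98 to 179 per array) were left out, log2 processed intensities were scaled to each array's 75th percentile over 43379 spots other than controls, and the mean of repeat spots was taken, which gave 41174 probes. Testing required a probe to be well above background on both arrays of a group. IELs and SPLs were compared by limma (version 3.58.1, under R version 4.3.3, with files read by data.table, version 1.17.8), two-sided, without a block, with Benjamini-Hochberg adjustment over 27912 probes at 0.05, after the script was tested on simulated data. For arrays, their number limits the precision.

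The members, the marker and pathway lists and the tests were chosen with earlier results of these data known. All members are named, and from each pathway list the 3 tested genes with the largest absolute log2 fold change, plus *Pkm*, which was chosen after its values were seen. Some genes that this rule selects are not reported here. Marker lists cover T cells, epithelium, Paneth, goblet, B, erythroid cells, macrophages and neutrophils. Positions are those of the arrays' annotation on mm9, and promoters are RefSeq sequences of GRCm38.p6. The alternatives tried were scaling by the median, quantile normalization, normexp background (offset 50, leaving out of its fit spots over 20 units under the local background), the authors' values, the mean of a gene's probes, no or a stricter filter, a block for the slide or for the replicate number, an intensity trend, the unpaired test of the methods, a 2-fold threshold without a test, and each sample left out in turn. Same-numbered replicates were not paired, since their deviations from the group means had a correlation of -0.025 across probes.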

Additional observations from a re-analysis of the deposited data

How the results depend on the processing

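Across quantile normalization, scaling by the median, normexp background, the authors' values and the mean of a gene's probes, 27 of 34 members kept their direction. The other filters, the blocks, the intensity trend and the unpaired test of the methods leave each log2 fold change as it is. They therefore cannot turn a direction, and the stricter filter tested only 31 members. In all of these settings 0 members were called higher or lower. Leaving out each sample in turn kept the direction of 22. The unadjusted test called 1292 probes higher and 307 lower in limma, and the unpaired test of the methods 470 and 349, of which 0 and 0 passed the adjustment. A block for the replicate number treats same-numbered samples as pairs, which the main test did not. With it, 0 probes and 0 members were called either way, against 0 without it. In that fit, 1488 probes were higher and 643 lower without adjustment. Leaving out samples gave 0 to 2384 probes higher and 0 to 3059 lower, 0 to 5 members higher and 0 to 3 lower, with every call, that of the dim *Eno2* included, in the fit without IEL replicate 2, and a median of the members from -0.023 to 0.054. A 2-fold threshold without a test gave 1796 probes higher and 1791 lower, with 2 and 2 members. Scaling by the median left 5 members with both IEL arrays higher instead of 8, and turned *Gpi1* to -0.034 and *Tpi1* to -0.033. *Tpi1* was also -0.034 after quantile normalization, -0.037 with the authors' values and -0.091 as a mean of probes, which gave -0.072 for *Slc2a3* and 0.031 for *Ldha*. Normexp moved the median of all probes to 0.15 and that of the members to -0.00083, with *Gpi1* at -0.037, *Pgam2* at 0.32, *Eno2* at 0.17 and *Pdk2* at 0.025, of which *Gpi1* and *Pdk2* lie below that median of all probes. The cause was not tested in any of these. Ranges over the samples left out were -0.40 to 0.29 for *Slc2a1*, -0.58 to 0.26 for *Slc16a1*, -0.96 to 0.086 for *Hk3*, -0.016 to 0.059 for *Gpi1*, -0.44 to 0.16 for *Pfkm*, -0.16 to 0.21 for *Tpi1*, -0.46 to 0.092 for *Pgk1*, -0.69 to 0.028 for *Pgam2*, -0.13 to 0.12 for *Ldha*, -0.32 to 0.080 for *Pdk3*, -0.81 to 1.67 for *Pdk4* and -0.38 to 0.19 for *Hif1a*. Dim probes are limited by signal over background, which was reached by *Pgam2*, *Eno2* and *Pdk4* on 1 of 2 IEL arrays.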
